A study of Mus musculus with 107 samples.

Results

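Dimercaprol without mustard was studied in 4 mouse ears, out of 107 arrays in the series. They are the 4 ears whose treatment label names dimercaprol and no mustard, on animals numbered 500 and above. Each was the right ear of a different animal (506, 507, 508 and 510), given 6.25 mg (50.3 µmol) of the drug in 10 µL, in ethanol, and sampled 24 h later as an 8 mm skin biopsy. They were set against 6 unexposed units: the ethanol-treated left ears of animals 507, 515 and 520, and 3 naive animals (501, 502 and 503), of which 502 and 503 gave 2 ears each that were averaged. The other ear of animals 507, 515 and 520 had received dimercaprol, indomethacin and octylhomovanillamide, so no ethanol ear came from an animal free of drugs. The volume of ethanol on those ears is not stated. Ears given indomethacin alone (4 ears, 1.34 mg) or octylhomovanillamide alone (5 ears, 0.6 mg) were used beside them. The remaining arrays of the series concern sulfur mustard, a blistering agent given as 0.08 mg in methylene chloride, with or without one of these drugs 15 min before it. Among them are 21 ears given methylene chloride without mustard, the reference for the mustard ears. Strain, age and sex are not given in the labels.

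Dimercaprol carries a pair of neighbouring thiol groups and is a classical antidote that binds arsenic, mercury and other metals. Cells answer changes in free metal and in thiol balance through known programs. Zinc and cadmium act through the factor MTF1 on metallothionein genes. Electrophiles and oxidants act through NRF2 on genes for glutathione, thioredoxin and quinone metabolism. Reducing agents disturb the forming of disulfide bonds in the endoplasmic reticulum and can start the unfolded protein response. These programs, with markers of irritation, repair and skin cell types, were described in 44 gene lists.

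Signals were scaled so that each array had a trimmed mean of 500, and differences are given on a log2(signal + 16) scale as dimercaprol minus control. A difference was called at a Benjamini-Hochberg adjusted p under 0.05 in limma, over 15953 probe sets with 1 to several probe sets per gene (9611 genes). Before scaling, the trimmed mean of the arrays was 96.1 to 146 in dimercaprol ears and 66.7 to 163 in control ears, with ethanol ear 507 the dimmest. Any 2 units without mustard, with the ears of a naive animal averaged, correlated at 0.914 to 0.974. Keratinocyte RNA was abundant in both groups: the basal keratin gene Krt14 read 19060 to 23691 in dimercaprol ears and 18209 to 27141 in control units, and the suprabasal keratin gene Krt10 23320 to 28884 in dimercaprol ears and 20742 to 37757 in control units. Arrays give no counts, so precision is set by how many ears were measured, by the spread between them and by the signal level. All drug ears were right ears and all ethanol ears left ears, so that drug and ear side cannot be told apart against ethanol alone. In a bulk biopsy, fewer cells of a type and less RNA per cell cannot be told apart.

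No probe set differed between dimercaprol and control ears at the threshold: 0 of 15953 were called by limma (0%), and the smallest adjusted p was 0.99995. At an unadjusted p under 0.05 there were 589 probe sets (3.69%), of which 278 were higher in dimercaprol ears (1.74%) and 311 lower (1.95%). The alternatives listed at the end also gave 0 calls. The lowest adjusted p among them was 0.0529 in limma, without dimercaprol ear 508. The estimates themselves were small. From the 5th to the 95th percentile, log2 differences ran from -0.32 to 0.33, around a median of 0.01. The 95% interval of the difference lay inside a 2-fold change in either direction for 14800 probe sets (92.8%) and inside a 1.5-fold change for 11055 (69.3%). For the remaining probe sets a 2-fold or 1.5-fold difference lay within the interval, and 39 probe sets had an estimate of 2-fold or more. The median SD of a probe set was 0.23 among dimercaprol ears and 0.24 among control units. All 4 dimercaprol ears lay above all 6 control units for 67 probe sets (0.42%) and below them for 63 (0.395%).

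Ethanol ears compared with naive animals gave the same count, 0 of 15953 called by limma (0%) and 501 at an unadjusted p under 0.05 (3.14%). Both kinds of ear form 1 control group here, and the values of each are given apart below. Against the ethanol ears alone, dimercaprol ears had 667 probe sets at an unadjusted p under 0.05 and 0 called, and against the naive animals alone 439 and 0. Against the right ears of naive animals alone, which match the drug ears in side, they were 747 and 0. Only animals 502 and 503 gave such ears, and the ethanol ears were left out of that fit.

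Over the 44 gene lists, the median difference of a list was above 0 in 22 and below 0 in 22, and within 0.1 of 0 in 31. In 19 lists every measured gene had an interval inside a 2-fold change. The lists with medians farthest from 0 among those with more than 10 measured genes were wound and stress keratinocytes (0.39), hair follicle (0.35), proliferation (0.32) and fibroblasts (-0.22). The lists were drawn up with earlier results of these data known, and their medians are descriptions. Without rescaling the median of all probe sets was 0.13 in place of 0.01, so the sign of a list is to be read relative to all genes; on that scale the mast cell list had 3 of 8 genes positive, fibroblasts 6 of 21 and cholesterol synthesis 9 of 18.

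**Figure D1:**
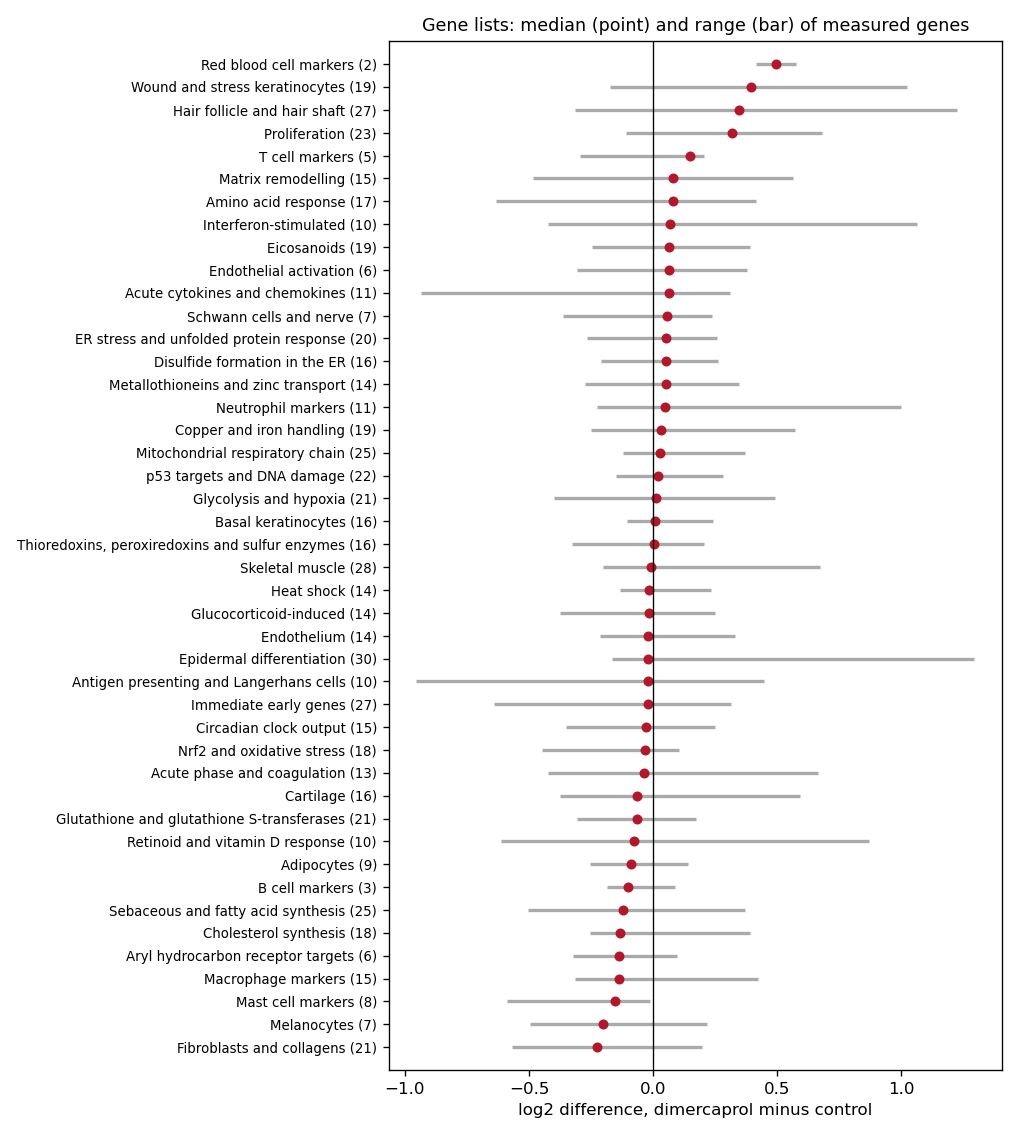
Log2 difference of dimercaprol minus control ears for 44 gene lists, with the number of measured genes in parentheses; the point is the median and the bar the range over genes. Medians ran from -0.22 for fibroblasts to 0.49 for red blood cell markers, which rest on 2 genes, and most lay close to 0.

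The metal-responsive genes are the first set of interest for a chelator. Mt1 and Mt2 encode the main metallothioneins, small cysteine-rich proteins that hold zinc and copper, and their promoters carry copies of the metal response element to which MTF1 binds. The RefSeq promoter windows (GRCm38.p6, 250 bases before to 50 after the gene start) are shown because the genes are known for these sites. The Mt1 window is chr8:94178839-94179138 and the Mt2 window chr8:94172368-94172667, both on the + strand. Capitals mark matches to the element's core, TGCACNC or TGCGCNC on either strand.
Mt1: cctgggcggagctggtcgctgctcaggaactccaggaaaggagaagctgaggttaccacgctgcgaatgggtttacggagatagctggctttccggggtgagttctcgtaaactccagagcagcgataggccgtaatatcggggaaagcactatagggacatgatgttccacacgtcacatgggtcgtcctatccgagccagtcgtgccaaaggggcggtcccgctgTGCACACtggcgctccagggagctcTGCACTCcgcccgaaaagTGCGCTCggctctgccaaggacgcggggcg
Mt2: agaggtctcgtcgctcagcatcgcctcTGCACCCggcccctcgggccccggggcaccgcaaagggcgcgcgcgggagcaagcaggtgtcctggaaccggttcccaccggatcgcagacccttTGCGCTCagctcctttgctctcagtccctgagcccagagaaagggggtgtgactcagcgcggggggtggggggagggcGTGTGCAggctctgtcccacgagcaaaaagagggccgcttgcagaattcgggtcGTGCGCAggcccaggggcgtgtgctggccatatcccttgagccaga
The Mt1 window held 3 matches, all on the + strand, and the Mt2 window 4, with 2 on each strand. Of 32851 promoter windows of the same length, 1.97% held at least 3 matches and 0.517% at least 4; a match is a description and not a measured site.

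The metallothionein transcripts were already abundant in unexposed skin and the dimercaprol and control units overlapped. Mt1 had a signal of 5931, 5528, 4835 and 4538 in dimercaprol ears 506, 507, 508 and 510, against 4835, 6769 and 5019 in ethanol ears 507, 515 and 520 and 3907, 3982 and 3301 in naive animals 501, 502 and 503. The dimercaprol ears overlapped the ethanol ears and lay above all 3 naive animals. The log2 difference of Mt1 was 0.20 ± 0.19 (SE; 95% interval -0.19 to 0.59; limma, unadjusted p = 0.306). Over 31 alternatives, among them other choices of control, it ran from -0.08 to 0.48. The smallest unadjusted p of Mt1 among them was 0.0258 in limma, and the smallest adjusted p 0.923. The signal of Mt2 was 9794, 10460.1, 8908 and 9753 in the dimercaprol ears, against 9218, 12069.8 and 7776 in the ethanol ears and 9181, 7344 and 6849.5 in the naive animals. Ethanol ear 515 was the highest of all units for both genes, and dimercaprol and control units overlapped. This gave Mt2 a difference of 0.18 ± 0.17 (SE; 95% interval -0.18 to 0.54; unadjusted p = 0.314). Over the same alternatives the Mt2 difference ran from 0.03 to 0.50. The Mt1 probe set is of a type that can match more than 1 transcript. Mt4, the metallothionein of stratified epithelium, differed by -0.08 (95% interval -0.25 to 0.10).

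Zinc and copper transport genes had small differences. Slc30a1, a zinc exporter that MTF1 also drives, differed by 0.03 (95% interval -0.25 to 0.32). Mtf1 itself differed by -0.28 (95% interval -0.57 to 0.02), Slc39a4, a zinc importer, by 0.35 (95% interval -0.06 to 0.75), and Slc31a1, the high-affinity copper importer, by -0.23 (95% interval -0.48 to 0.02). Second probe sets of Mtf1 and Slc31a1 gave 0.05 and 0.09. Of the 14 measured genes for metallothioneins and zinc transport, 9 had a positive difference, 0 had an unadjusted p under 0.05, and all 14 intervals lay inside a 2-fold change; the median was 0.05, against 0.01 over all 9611 genes. The 19 measured genes of copper and iron handling had a median of 0.03, with 10 positive and 0 at an unadjusted p under 0.05.

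**Figure D2:**
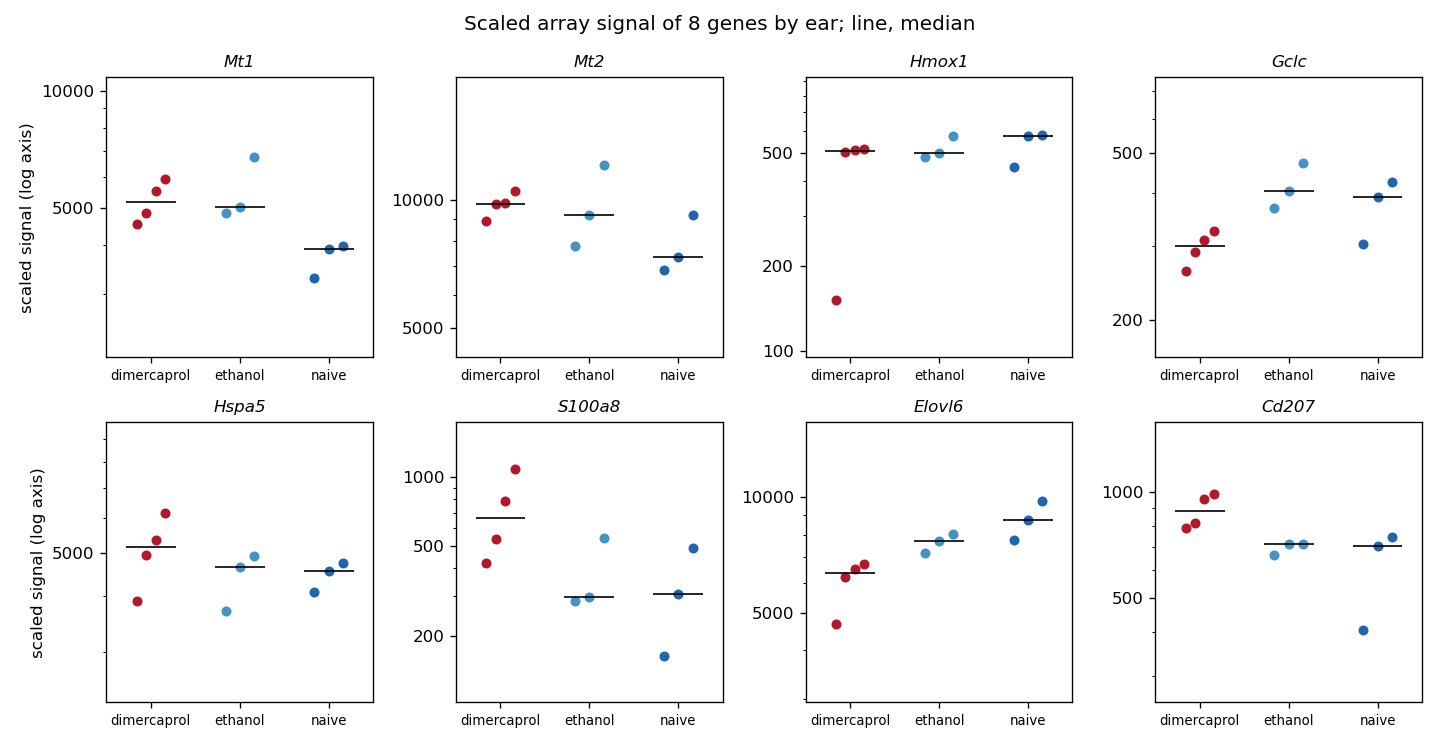
Scaled signal (log axis) of 8 genes in the 4 dimercaprol ears, the 3 ethanol ears and the 3 naive animals; each point is an ear or an averaged animal and each line a median. Dimercaprol and control units overlapped for Mt1, Mt2, Hmox1, Gclc, Hspa5 and S100a8, and did not for Elovl6 and Cd207. Of all probe sets, 0.42% were separated with dimercaprol ears higher and 0.395% with them lower.

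NRF2 targets had differences on both sides of 0. Hmox1 encodes heme oxygenase, a strong marker of oxidative and electrophilic stress. In dimercaprol ears Hmox1 read 152, 505, 519 and 513, against 486, 575 and 501 in ethanol ears and 446, 577 and 581 in naive animals. Dimercaprol ear 506 was far below all the others, and the other 3 dimercaprol ears lay within the range of the control units. The Hmox1 difference was -0.45 ± 0.28 (SE; 95% interval -1.04 to 0.14; unadjusted p = 0.131). Without ear 506 the difference was -0.03. Nqo1, a quinone reductase, differed by 0.02 (95% interval -0.31 to 0.34), Srxn1, which repairs oxidised peroxiredoxins, by 0.03 (95% interval -0.37 to 0.43), and Txnrd1, thioredoxin reductase, by -0.12 (95% interval -0.31 to 0.07).

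Gclc and Gclm encode the subunits of the enzyme that limits glutathione synthesis. The signal of Gclc was 310.5, 290.4, 261 and 326 in the dimercaprol ears, against 369.5, 404 and 472 in the ethanol ears and 426, 393 and 304 in the naive animals. The dimercaprol ears overlapped only naive animal 503. For Gclc the log2 difference came to -0.38 ± 0.14 (SE; 95% interval -0.67 to -0.10; unadjusted p = 0.0105). The second Gclc probe set gave -0.14, and Gclm differed by 0.10 (95% interval -0.24 to 0.45). Over the list of NRF2 and oxidative stress genes, 7 of 18 were positive, against 52.8% of all genes, and the median was -0.03. In this list 1 gene had an unadjusted p under 0.05 (lower), against 1.96% of all genes in that direction. Glutathione S-transferase and glutathione genes had a median of -0.07 over 21 genes, of which 0 had an unadjusted p under 0.05; Gstm1, an abundant transferase, differed by -0.17 (95% interval -0.39 to 0.04). The other Gstm1 probe sets gave 0.01, 0.08 and -0.08. Thioredoxins, peroxiredoxins and sulfur enzymes had a median of 0.00 over 16 genes, with 8 positive and all 16 intervals inside a 2-fold change. Prdx4, the peroxiredoxin of the endoplasmic reticulum, differed by 0.16 (95% interval -0.13 to 0.46). The other Prdx4 probe sets gave 0.04 and 0.04. Of the aryl hydrocarbon receptor list 2 of 6 genes were positive. Ahr, the receptor, differed by -0.32 (95% interval -0.60 to -0.05), and Cyp1a1, its best-known target, by -0.24 (95% interval -0.56 to 0.08).

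Genes of protein folding in the endoplasmic reticulum had small differences, and the share of positive ones depended on the control. Hspa5 encodes BiP, the main chaperone induced by unfolded proteins. In dimercaprol ears Hspa5 read 4961, 6137, 3909 and 5335, against 4912, 3703 and 4662 in ethanol ears and 4749, 4086 and 4551 in naive animals. Dimercaprol ears 507 and 510 were the highest of all units and ear 508 was the second lowest. This gave Hspa5 a difference of 0.18 ± 0.17 (SE; 95% interval -0.16 to 0.53; unadjusted p = 0.283). The calcium-binding chaperone gene Calr differed by 0.26 (95% interval -0.01 to 0.53), the chaperone gene Hsp90b1 by 0.22 (95% interval -0.07 to 0.51), and Pdia3 and Ero1a, which form disulfide bonds, by 0.16 and 0.16. The other Ero1a probe sets gave -0.07 and -0.14, and the other Calr probe sets 0.37 and 0.23. Second probe sets of Hspa5 and Hsp90b1 gave 0.06 and 0.12. Of 20 genes of the unfolded protein response 15 were positive, against 52.8% of all genes, with a median of 0.05, 0 at an unadjusted p under 0.05 and all 20 intervals inside a 2-fold change. Against ethanol ears alone 11 of 20 were positive, and against naive animals alone 12 of 20.

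Ddit3 encodes CHOP, a factor of prolonged folding stress. The signal of Ddit3 was 201, 194, 298 and 282 in the dimercaprol ears, against 312, 300.3 and 319 in the ethanol ears and 119.9, 152 and 177 in the naive animals. The dimercaprol ears lay below all ethanol ears and above all naive animals, and the sign of the difference followed the control chosen. The Ddit3 difference was 0.14 ± 0.23 (SE; 95% interval -0.34 to 0.63; unadjusted p = 0.545). It was -0.35 against ethanol ears alone and 0.64 against naive animals alone. Nupr1, a stress gene of the amino acid response, had an unadjusted p under 0.05. In dimercaprol ears Nupr1 read 852, 728, 1085 and 846, against 1277, 1654 and 1751 in ethanol ears and 1606, 1128 and 925 in naive animals. Dimercaprol ears overlapped the control units through naive animal 503. For Nupr1 the log2 difference came to -0.63 ± 0.20 (SE; 95% interval -1.05 to -0.21; unadjusted p = 0.00516). The 17 genes of the amino acid response had a median of 0.08 with 12 positive, against 52.8% of all genes. Only Nupr1 among them had an unadjusted p under 0.05 (lower), against 1.96% of all genes in that direction. The 14 heat shock genes had a median of -0.01, with all intervals inside a 2-fold change; Hspa1b, an inducible heat shock protein, differed by 0.05 (95% interval -0.22 to 0.32), and Hspb1 by -0.13 (95% interval -0.35 to 0.09).

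Targets of p53, the factor that answers DNA damage, had small differences. Cdkn1a encodes the cell cycle inhibitor p21. The signal of Cdkn1a was 4732, 5220.1, 4031 and 4242 in the dimercaprol ears, against 4117, 4958 and 4284 in the ethanol ears and 3754, 4294 and 4809 in the naive animals. Dimercaprol ear 507 was the highest of all units, and the other dimercaprol ears lay within the control range. This gave Cdkn1a a difference of 0.06 ± 0.13 (SE; 95% interval -0.21 to 0.33; unadjusted p = 0.654). In the separate mustard animals Cdkn1a averaged 15205 with mustard alone and 3859 with methylene chloride. Mdm2, which feeds back on p53, differed by -0.04 (95% interval -0.35 to 0.27) after dimercaprol, and Aen, a nuclease gene, by 0.23 (95% interval -0.01 to 0.47). Second probe sets of Cdkn1a, Mdm2 and Aen gave -0.01, 0.16 and 0.31. All 22 measured p53 targets had an interval inside a 2-fold change, and their median was 0.02, where mustard against methylene chloride gave the same genes a median of 1.02.

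Genes of acute inflammation had differences on both sides of 0, several of them with wide intervals. Il1b, a cytokine of early skin inflammation, had a signal in every ear. In dimercaprol ears Il1b read 333, 272, 367 and 245, against 331, 238 and 199 in ethanol ears and 263, 272 and 330.2 in naive animals. The groups overlapped. The Il1b difference was 0.16 ± 0.18 (SE; 95% interval -0.22 to 0.53; unadjusted p = 0.398). Cxcl1, a chemokine for neutrophils, read under 100 in every dimercaprol and control unit and differed by 0.03 (95% interval -1.08 to 1.13); the interval is wide at this signal. Tnf, another early cytokine, was low in 3 of 4 dimercaprol ears. The signal of Tnf was 177, 42.1, 46.3 and 59.1 in the dimercaprol ears, against 200.1, 104 and 106 in the ethanol ears and 85.4, 283 and 178 in the naive animals. Dimercaprol ear 506 lay within the control range. For Tnf the log2 difference came to -0.94 ± 0.39 (SE; 95% interval -1.76 to -0.12; unadjusted p = 0.0274). Ptgs2, the inducible cyclooxygenase, differed by -0.25 (95% interval -0.67 to 0.18). The 11 cytokine and chemokine genes had a median of 0.06 with 8 positive, against 52.8% of all genes. Only Tnf among them had an unadjusted p under 0.05 (lower), against 1.96% of all genes in that direction. Immediate early genes had a median of -0.02 over 27 genes with 10 positive; Fos, the best-known of them, ranged from 1279 to 2910 among dimercaprol ears and 538 to 3777 among control units, and differed by -0.08 (95% interval -1.23 to 1.07). Atf3, a stress-induced factor, differed by -0.57 (95% interval -1.57 to 0.44) at signals of 25.5 to 222 in dimercaprol ears.

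Calprotectin and activated-keratinocyte genes had larger estimates with wide intervals. S100a8 and S100a9 encode the subunits of calprotectin, made by neutrophils and by stressed epidermis. In dimercaprol ears S100a8 read 1092, 538, 418 and 784, against 297, 539 and 287 in ethanol ears and 307, 164 and 488 in naive animals. Dimercaprol ear 506 was the highest of all units and ear 510 second, and the others overlapped the control units. This gave S100a8 a difference of 1.00 ± 0.50 (SE; 95% interval -0.03 to 2.03; unadjusted p = 0.0575). The signal of S100a9 was 942, 490.1, 207 and 379.6 in the dimercaprol ears, against 269.8, 424 and 229.7 in the ethanol ears and 231, 152 and 317 in the naive animals. Dimercaprol ears 506 and 507 were above every control unit, and ears 508 and 510 lay within their range. The S100a9 difference was 0.73 ± 0.43 (SE; 95% interval -0.17 to 1.62; unadjusted p = 0.105). In mustard ears S100a8 averaged 14905, against 237 in methylene chloride ears, so that the highest dimercaprol ear was far below the mustard level. Over the whole neutrophil list of 11 measured genes the median was 0.05 with 7 positive, and the list mean ran from -0.05 to 0.52 in dimercaprol ears and from -0.32 to 0.29 in control units. The part of neutrophils in the S100a8 difference was not tested.

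Krt6b and Krt16 are keratins of activated epidermis. In dimercaprol ears Krt16 read 2289, 1154, 630.3 and 1347, against 1563, 611 and 360.4 in ethanol ears and 504, 313 and 1261 in naive animals. Dimercaprol ear 506 was highest, ethanol ear 507 second, and the groups overlapped widely. For Krt16 the log2 difference came to 0.92 ± 0.61 (SE; 95% interval -0.36 to 2.19; unadjusted p = 0.151). Krt6b differed by 0.73 (95% interval -0.59 to 2.05), Lce3a, a cornified envelope gene of repair, by 1.02 (95% interval -0.15 to 2.19), Sprr2f, another such gene, by 0.63 (95% interval -0.04 to 1.30), and Stfa3, a protease inhibitor, by 0.70 (95% interval -0.25 to 1.64). Of 19 measured wound and stress keratinocyte genes, 16 were positive, against 52.8% of all genes. Their median was 0.39, and 0 had an unadjusted p under 0.05. The list mean of an ear ran from -0.09 to 0.94 in dimercaprol ears and from -0.65 to 0.52 in control units. Without ear 506 the median was 0.26. With mustard against methylene chloride the same genes had a median of 3.87.

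**Figure D3:**
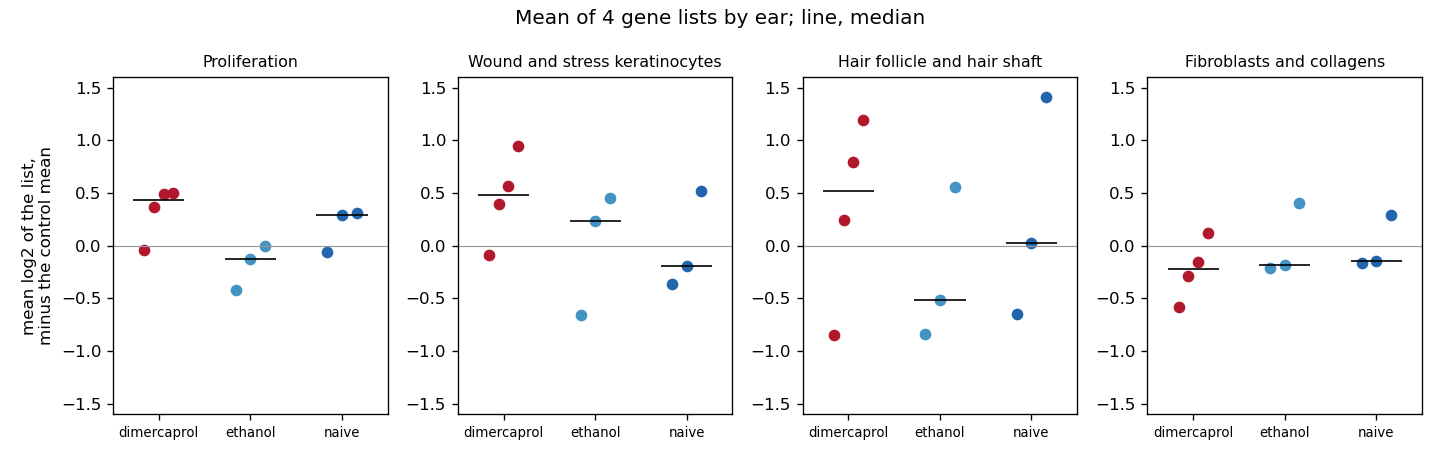
Mean log2 value over the genes of 4 lists in each dimercaprol ear, ethanol ear and naive animal, relative to the control mean; lines are medians. Dimercaprol and control units overlapped for all 4 lists, and the hair follicle list ranged over 2.03 in dimercaprol ears and 2.25 in control units.

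Cell division genes had mostly positive differences, without a call. Of 23 measured proliferation genes, 22 were positive, against 52.8% of all genes, and the median was 0.32. In this list 4 genes had an unadjusted p under 0.05 (all higher), against 1.84% of all genes in that direction. Cdk1 encodes the kinase that drives mitosis. The signal of Cdk1 was 386, 716, 297 and 688 in the dimercaprol ears, against 241, 379 and 238 in the ethanol ears and 185, 488 and 359.7 in the naive animals. Dimercaprol ears 507 and 510 were above every control unit, and ears 506 and 508 lay within the control range. This gave Cdk1 a difference of 0.68 ± 0.28 (SE; 95% interval 0.09 to 1.27; unadjusted p = 0.0263). Ccna2, a cyclin of S phase and mitosis, differed by 0.41 (95% interval 0.07 to 0.74), and the replication helicase genes Mcm2 and Mcm7 by 0.66 and 0.34. A second Mcm2 probe set gave 0.39, and the other Mcm7 probe sets 0.00, 0.05 and 0.19. The list mean was 0.37, 0.50, -0.04 and 0.50 in dimercaprol ears 506, 507, 508 and 510, against 0.00, -0.13 and -0.42 in ethanol ears and -0.06, 0.31 and 0.30 in naive animals. The median over genes was 0.53 against ethanol ears alone and 0.18 against naive animals alone.

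Hair follicle genes, whose expression is known to follow the growth cycle of the follicles, ranged widely within both groups. The list mean was -0.84, 0.25, 1.19 and 0.80 in dimercaprol ears 506, 507, 508 and 510, against -0.52, -0.83 and 0.56 in ethanol ears and 1.41, -0.65 and 0.03 in naive animals. Ears at both ends of the range came from both groups. Of 27 measured genes 19 were positive, against 52.8% of all genes, and 2 had an unadjusted p under 0.05 (both higher), against 1.84% of all genes in that direction; the median was 0.35. Against naive animals alone 13 of 27 were positive and the median was -0.04, and without dimercaprol ear 508 it was 0.04. Tchh, which encodes trichohyalin of the inner root sheath and stood in the epidermal differentiation list, read 19.8 to 1188 in dimercaprol ears and 8.2 to 710 in control units. Krt72, an inner root sheath keratin, differed by 1.02 (95% interval 0.04 to 2.00), and Padi3, which modifies trichohyalin, by 0.53 (95% interval 0.14 to 0.92).

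Lipid synthesis genes had mostly negative differences. Elovl6 encodes an enzyme that lengthens fatty acids. In dimercaprol ears Elovl6 read 4692, 6534, 6204 and 6705, against 7698, 8043 and 7186 in ethanol ears and 9809.7, 8736 and 7774 in naive animals. Every dimercaprol ear was below every control unit, a separation that 0.395% of all probe sets showed in this direction. The Elovl6 difference was -0.45 ± 0.14 (SE; 95% interval -0.74 to -0.16; unadjusted p = 0.00431). The second Elovl6 probe set gave -0.42. The other elongases Elovl5 and Elovl4 differed by -0.38 and -0.26, and the desaturase Scd3 by -0.50. Of 25 measured genes of sebaceous glands and fatty acid synthesis 19 were negative, where 52.8% of all genes were positive. In this list 5 genes had an unadjusted p under 0.05 (all lower), against 1.96% of all genes in that direction. The median was -0.12 and every interval lay inside a 2-fold change. Without rescaling of the arrays the median of this list was 0.01 where that of all probe sets was 0.13, so the list lay below the other genes on either scale. Cholesterol synthesis genes had a median of -0.13 with 13 of 18 negative and 1 at an unadjusted p under 0.05; it is Mvk, mevalonate kinase, at -0.25, and its second probe set had 0.14. Without dimercaprol ear 506 the cholesterol median was -0.05, without ear 508 -0.06, without ear 507 -0.24 and without ear 510 -0.22.

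Among cell type lists, connective tissue and mast cell genes had mostly negative differences from the pooled control. Of 21 fibroblast and collagen genes 19 were negative, where 52.8% of all genes were positive. Their median was -0.22, with 0 at an unadjusted p under 0.05. Col1a1, the main collagen of skin, differed by -0.57 (95% interval -1.28 to 0.14), and its second probe set by -0.28. Dcn, a matrix proteoglycan, differed by -0.51 (95% interval -1.14 to 0.12). The list mean ran from -0.58 to 0.12 in dimercaprol ears and from -0.21 to 0.41 in control units, and without dimercaprol ear 507 the median was -0.08. The 8 mast cell genes had a median of -0.15 with 0 positive and 0 at an unadjusted p under 0.05, with Tpsb2, a tryptase, at -0.59 and Mcpt4, a chymase, at -0.53, where against the right ears of naive animals alone Mcpt4 had 0.84. The mast cell list mean was 0.21, -0.56, -0.08 and -0.41 in dimercaprol ears 506, 507, 508 and 510, against -0.16 to 0.16 in control units, so that ear 506 was above and ears 507 and 510 below every control unit. Without dimercaprol ear 507 the median was -0.04, and 3 of 8 genes were positive without ear 507, without ear 510 or against naive animals alone. Skeletal muscle genes, which depend on how much ear muscle a biopsy holds, had a median of -0.01 over 28 genes, and their list mean ran from -0.24 to 0.41 in dimercaprol ears and from -0.28 to 0.27 in control units.

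Cd207 encodes langerin, which marks Langerhans cells, the antigen-presenting cells of epidermis. The signal of Cd207 was 792, 814, 954 and 986 in the dimercaprol ears, against 709.8, 710.1 and 662 in the ethanol ears and 744, 404 and 701 in the naive animals. Every dimercaprol ear was above every control unit, a separation that 0.42% of all probe sets showed in this direction. Naive animal 502 was the lowest. For Cd207 the log2 difference came to 0.45 ± 0.15 (SE; 95% interval 0.13 to 0.77; unadjusted p = 0.00853). Without naive animal 502 it was 0.32. H2-Eb1, a class II antigen-presenting gene, had the opposite sign. In dimercaprol ears H2-Eb1 read 574, 1225, 1165 and 534, against 1516, 2804 and 1129 in ethanol ears and 1422, 1571 and 1515 in naive animals. Ethanol ear 515 was the highest and dimercaprol ears 507 and 508 overlapped ethanol ear 520. This gave H2-Eb1 a difference of -0.95 ± 0.38 (SE; 95% interval -1.74 to -0.16; unadjusted p = 0.0202). Flt3, a receptor of dendritic cell precursors, differed by -0.78 (95% interval -1.53 to -0.02). The 10 antigen-presenting genes had a median of -0.02, with 4 positive. Against ethanol ears alone it was -0.21 with 2 positive, and against naive animals alone 0.15 with 7 positive. Melanocyte genes had a median of -0.20 over 7 genes, with 2 at an unadjusted p under 0.05 (both lower), against 1.96% of all genes in that direction: Mitf, the lineage factor, at -0.50, and Tyrp1, a pigment enzyme, at -0.47, whose other probe sets gave -0.08 and 0.01. Without dimercaprol ear 507 the melanocyte median was -0.07. Of the 2 measured red blood cell genes, the haemoglobin gene Hba-a1 read 156 to 314 in dimercaprol ears and 117 to 176 in control units and differed by 0.57 (95% interval 0.07 to 1.08).

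Single genes of the remaining lists are given because they had the smallest p of their list. Alox12e, an epidermal lipoxygenase, differed by 0.39 (95% interval 0.11 to 0.67), Slc16a3, a lactate exporter, by 0.49 (95% interval 0.12 to 0.85), Fosl2, a Fos-related factor, by 0.31 (95% interval 0.03 to 0.60), and Oas1a, an interferon-induced enzyme, by 1.06 (95% interval 0.16 to 1.96). Against the right ears of naive animals alone Oas1a had -0.15. F3 encodes tissue factor, which starts coagulation. The signal of F3 was 926, 828, 734 and 1073 in the dimercaprol ears, against 959, 1284 and 1225 in the ethanol ears and 1335, 1379 and 1015 in the naive animals. Dimercaprol ear 510 overlapped ethanol ear 507 and naive animal 503. The F3 difference was -0.42 ± 0.12 (SE; 95% interval -0.68 to -0.17; unadjusted p = 0.00234).

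The genes with the smallest p of the whole comparison were chosen after their values were seen, and none passed the threshold (adjusted p = 0.99995 in limma). Narf, a gene for a nuclear lamina protein, had the smallest p of a named gene. In dimercaprol ears Narf read 59.4, 280.1, 118 and 389.5, against 301, 503 and 436 in ethanol ears and 430.1, 624 and 539 in naive animals. Dimercaprol ears 506 and 508 were far below all other units, and ear 510 overlapped ethanol ear 507. For Narf the log2 difference came to -1.35 ± 0.31 (SE; 95% interval -2.01 to -0.70; unadjusted p = 0.000309). A second Narf probe set gave -0.29. Ccl22, a chemokine of dendritic cells and macrophages, had the opposite sign. The signal of Ccl22 was 399, 365, 157 and 626 in the dimercaprol ears, against 281, 143 and 122 in the ethanol ears and 153, 99.9 and 118 in the naive animals. Dimercaprol ears 506, 507 and 510 were above every control unit and ear 508 lay within their range. This gave Ccl22 a difference of 1.18 ± 0.32 (SE; 95% interval 0.51 to 1.85; unadjusted p = 0.0015).

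Scara5 encodes a scavenger receptor that takes up ferritin. In dimercaprol ears Scara5 read 256, 210.0, 302 and 122, against 472, 381 and 697 in ethanol ears and 440.5, 326 and 410.2 in naive animals. Every dimercaprol ear was below every control unit, a separation that 0.395% of all probe sets showed in this direction. Ear 510 was the lowest. The Scara5 difference was -1.01 ± 0.28 (SE; 95% interval -1.59 to -0.42; unadjusted p = 0.00182). A second Scara5 probe set gave -0.22. Bcl2l13, a mitochondrial protein of the Bcl-2 family, separated the other way. The signal of Bcl2l13 was 757, 803, 918 and 721 in the dimercaprol ears, against 565, 554 and 585 in the ethanol ears and 522, 527 and 572 in the naive animals. All dimercaprol ears were higher than all control units, a separation that 0.42% of all probe sets showed in this direction. For Bcl2l13 the log2 difference came to 0.51 ± 0.13 (SE; 95% interval 0.25 to 0.77; unadjusted p = 0.000549). Hsd17b10, a mitochondrial dehydrogenase, differed by -0.52 (95% interval -0.78 to -0.26) and its second probe set by -0.12, and Stmn2, a gene of neurons, differed by -0.80 (95% interval -1.25 to -0.35) and its second probe set by -0.18.

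Dimercaprol ears were also set against ears given the other drugs without mustard. Doses and volumes differed between drugs. Against octylhomovanillamide ears, 0 of 15953 probe sets were called by limma (0%) and 688 had an unadjusted p under 0.05 (4.31%). Against indomethacin ears 1 was called (0.00627%), lower in dimercaprol ears, and 1749 had an unadjusted p under 0.05 (11%). The called probe set belongs to Txnip, which encodes a protein that binds thioredoxin and restrains glucose uptake; its difference was -1.37 ± 0.21 (SE; adjusted p = 0.0396 in limma). The Txnip promoter is shown because it belongs to the single call. It is chr3:96557707-96558006 on the + strand (RefSeq, GRCm38.p6), and capitals mark the core of the carbohydrate response element, CACGNG on either strand.
Txnip: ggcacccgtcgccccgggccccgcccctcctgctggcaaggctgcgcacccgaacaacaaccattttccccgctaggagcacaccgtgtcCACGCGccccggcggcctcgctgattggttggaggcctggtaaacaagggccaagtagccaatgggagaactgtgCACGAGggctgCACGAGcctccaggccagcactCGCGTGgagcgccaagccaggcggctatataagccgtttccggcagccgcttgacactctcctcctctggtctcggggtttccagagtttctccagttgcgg
The window held 4 matches, 3 on the + strand, and 0.396% of the 32851 windows held at least 4.

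The second Txnip probe set was the brighter one and gave a difference of -1.73 ± 0.32 (SE; adjusted p = 0.0527 in limma). Its signal was 2315, 2518, 1987 and 2806 in dimercaprol ears, against 7756, 8512, 8718 and 6993 in indomethacin ears. It was 2722, 7358 and 3701 in ethanol ears 507, 515 and 520, and 2607, 1985 and 1880 in naive animals. Ethanol ear 515, whose animal had indomethacin on the other ear, lay among the indomethacin ears. Against the 6 control units, this brighter Txnip probe set differed in dimercaprol ears by -0.33 (95% interval -0.93 to 0.27), and without ethanol ear 515 by -0.07. The called Txnip probe set differed from the control units by -0.02 (95% interval -0.42 to 0.39). The Txnip call was absent when dimercaprol ear 506, 507 or 510 or indomethacin ear 511, 512 or 514 was left out (0 probe sets called in each case), and leaving out dimercaprol ear 508 or indomethacin ear 515 gave 36 and 28 calls.

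Pdk4 and Tsc22d3, which were called under certain alternatives and were chosen after their values were seen, had the same order. Pdk4 restrains glucose oxidation in fasting and Tsc22d3 is a glucocorticoid-induced gene. Pdk4 read 286, 171, 251 and 148 in dimercaprol ears, against 1081, 1281, 1539 and 693 in indomethacin ears, with 930.3 in ethanol ear 515. Tsc22d3 read 2384, 1475, 1823 and 2068 in dimercaprol ears, against 3889, 5869, 4629 and 3814 in indomethacin ears, with 3160.1 in ethanol ear 515. For both genes the dimercaprol ears lay below all indomethacin ears, and adjusted p was 0.0565 in limma for each. How many of all probe sets separate these drugs in this way was not counted. In this contrast 11% of all probe sets had an unadjusted p under 0.05 in limma. The Pdk4 difference between dimercaprol and indomethacin ears was -2.33 and that of Tsc22d3 -1.22. Between dimercaprol and control units they were -0.57 and -0.04. Over the list of 14 glucocorticoid-induced genes dimercaprol ears had a median of -0.02 against control units (6 of 14 positive). It was -0.20 against ethanol ears alone (3 positive) and 0.17 against naive animals alone (11 positive).

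**Figure D4:**
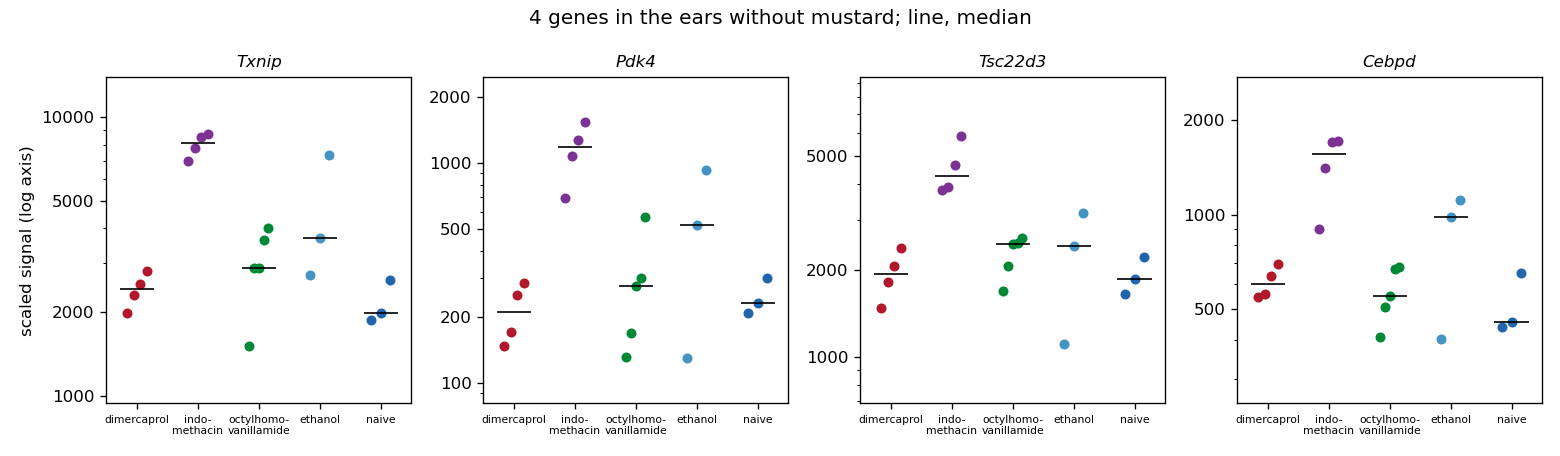
Scaled signal (log axis) of Txnip, Pdk4, Tsc22d3 and Cebpd in ears given dimercaprol, indomethacin or octylhomovanillamide without mustard, in ethanol ears and in naive animals; lines are medians. The 4 indomethacin ears lay above the 4 dimercaprol ears for each gene, and the highest ethanol ear is that of animal 515. How many of all probe sets separate these drugs in this way was not counted.

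The mustard animals give a scale for these differences in ear skin, and share no ear with the comparison above. Mustard (5 ears) against methylene chloride (21 ears) had 6825 probe sets called by limma (42.8%). All these mustard ears were right ears and all methylene chloride ears left ears, in part of the same animals, and the pairing was not used. Of the probe sets that mustard raised at least 2-fold over methylene chloride with an adjusted p under 0.05 (333), 64.9% were positive after dimercaprol alone, against 52.8% of all probe sets. Their median was 0.08, where mustard itself gave 1.37, and 13 had an unadjusted p under 0.05 (3.9%). Of the 513 that mustard lowered as much, 34.3% were positive, with a median of -0.06 where mustard gave -1.20, and 33 had an unadjusted p under 0.05 (6.43%). Over all probe sets that share was 3.69%. The mean over the raised set was 0.28, 0.06, 0.04 and 0.07 in dimercaprol ears 506, 507, 508 and 510, against 0.05, 0.04 and -0.02 in ethanol ears and -0.02, -0.14 and 0.09 in naive animals. Ear 506 was the one dimercaprol ear above every control unit, and without it 56.8% were positive, with a median of 0.04. The mean over the lowered set was -0.12, -0.05, -0.10 and -0.03 in the dimercaprol ears, against -0.12, -0.04 and 0.10 in ethanol ears and 0.11, 0.02 and -0.07 in naive animals, and the groups overlapped. Without rescaling the arrays the medians were 0.17 for the raised set and 0.06 for the lowered set, beside 0.13 for all probe sets.

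With mustard, many probe sets were called. Ears given dimercaprol then mustard (6) against mustard alone (5) had 4280 probe sets called by limma (26.8%). The difference between that contrast and the one without mustard, a comparison chosen after the data were seen, was called for 2088 probe sets (13.1%), 1284 higher (8.05%) and 804 lower (5.04%). With array brightness as a covariate these counts were 327 and 505, and with the Gapdh 3' to 5' ratio 1741 and 1366; without mustard ear 37 the second was 1295 and without mustard ear 36 it was 3182. Without rescaling, the median probe set was 0.76 higher with dimercaprol then mustard than with mustard alone. Among the panel, S100a8 gave -3.97 with mustard, where it gave 1.00 without, a difference of -4.97 (adjusted p = 0.000394 in limma). Cdkn1a gave -1.15 with mustard and 0.06 without, a difference of -1.21 (adjusted p = 0.000667). Hspa5 gave -0.69 with mustard and 0.18 without (difference -0.87, adjusted p = 0.0137), and Mt2 gave -0.53 and 0.18 (difference -0.71, adjusted p = 0.0421). Gclm, Slc30a1, Hspa1b and Txnrd1 had differences between the contrasts of -0.21, 0.11, 0.26 and 0.18, which did not pass the threshold. For Mt4 the difference with mustard was 2.78 and without it -0.08, a gap of 2.86 (adjusted p = 0.000391); ears given dimercaprol then mustard averaged 7362 and mustard ears 1605.

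**Figure D5:**
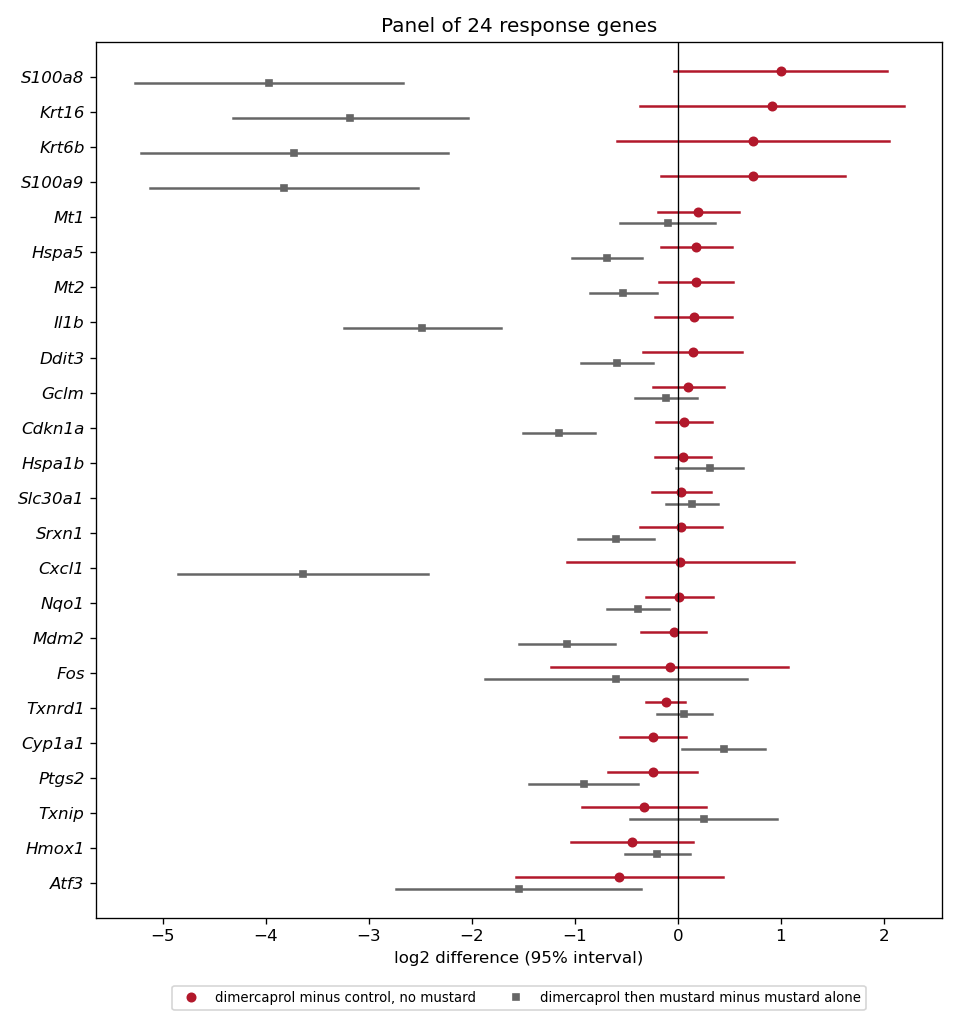
Log2 differences with 95% intervals for the 24 measured genes of a response panel, for dimercaprol minus control ears without mustard and for dimercaprol then mustard minus mustard alone. Without mustard every interval spans 0, while with mustard those of S100a8, S100a9, Krt6b, Krt16, Cxcl1, Il1b, Cdkn1a and Mdm2, among others, lie below 0.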

How the data were processed

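RNA from 64 ear biopsies was hybridised to Affymetrix mouse array A, 1 array per ear. The deposited values are MAS5 signal intensity values per probe set, per the submitters' processing notes; the software version and its settings are not given in the sources used here. Signals were multiplied by 1 factor per array to bring the 2% trimmed mean, taken without 64 control probe sets, to 500. Probe sets were kept where this signal averaged 100 or more over the 64 arrays (15953 of 22690), and 16 was added before taking log2. Groups were compared with limma 3.58.1 in R 4.3.3 (lmFit, eBayes with trend, 2-sided), with Benjamini-Hochberg adjustment over all kept probe sets and a threshold of 0.05. The fit held all ears without mustard. Another fit held the mustard series, and 1 more held both. Figures were drawn with matplotlib 3.10.9. The tests were also run on simulated data. Values there were drawn independently for each probe set, so the correlation between genes in real ears was left out.

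Where a gene had several kept probe sets, the brightest on average stood for it. The rule for named genes took any called genes (none here against control), up to 4 genes per list by smallest p, a response panel, and called differences between drugs. Genes with the smallest p over all lists, and Mt4, Pdk4, Tsc22d3, Cebpd, Sesn1, Retreg1, Krt14 and Krt10, were added after their values were seen. The members and lists were chosen with earlier results of these data known. Between dimercaprol and control, replicates are ears of separate animals, except that animal 507 gave a dimercaprol ear and an ethanol ear. Animals 515 and 520 also gave an ethanol ear and a drug ear to the same fit. In the mustard series several animals gave a methylene chloride left ear and a right ear with mustard. The main fits treated ears of different groups as independent. Deviations of same-animal ears correlated at -0.11, 0.06 and -0.07 for animals 507, 515 and 520. Alternatives changed the scaling, pseudocount, filter, variance model, ears in the fit, covariates and controls. Array B was not used here, since it holds no ear of these animals.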

Additional observations from a re-analysis of the deposited data

Results flagged for a closer look

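In 6 of 168 gene and group sets examined (3.57%), 1 unit lay far from the others of its group; chance alone does this in about 1 group in 20. Among dimercaprol ears these were Hmox1 in ear 506 (signal 151.8), Nqo1 in ear 510 (256.0) and Hsd17b10 in ear 507 (922.1). Among control units they were Ero1a in ethanol ear 507 (646.9), Cd207 in naive animal 502 (404.3) and H2-Eb1 in ethanol ear 515 (2804.4).

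The difference of dimercaprol with mustard minus the difference without it passed the threshold in limma for 31 of the 83 genes examined, and for 13.1% of all probe sets (2088 of 15953), a count that was 505 with array brightness as a covariate. Most of the 83 genes were named by small p or after their values were seen. Genes of inflammation and activated epidermis had negative values: S100a8 -4.97, S100a9 -4.55, Krt6b -4.45, Krt16 -4.09, Lce3a -4.03, Sprr2f -3.91, Cxcl1 -3.67, Stfa3 -3.16 and Il1b -2.64. The p53 targets Cdkn1a, Mdm2 and Aen had -1.21, -1.04 and -0.79. The chaperone genes Hspa5 and Calr had -0.87 and -0.62, Mt2 -0.71 and the replication gene Mcm7 -0.66.

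Other genes had positive values on the same scale. Narf, Scara5, F3, Stmn2, Hsd17b10, Elovl6, Nupr1, Ahr and Mitf had been named for a small p with lower values in dimercaprol ears without mustard. That difference is subtracted here, so for them a positive value is in part built in, and they are descriptions only; for genes named for a positive difference the same holds for a negative value. They were Mt4 2.86, Scara5 2.55, Narf 2.26, F3 2.13, Stmn2 1.43, Alox12e 1.40, Sesn1 1.09 and Ahr 0.99. Gstm1 had 0.93, Mitf 0.91, Elovl6 0.86, Retreg1 0.86, Hsd17b10 0.82, Nupr1 0.77 and Slc31a1 0.54. Without mustard, Txnip was lower in dimercaprol than in indomethacin ears by a tested difference of -1.37.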

How the results depend on the processing

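Dimercaprol against control, ethanol against naive and dimercaprol against octylhomovanillamide had 0 calls in limma under every alternative run. Probe sets at an unadjusted p under 0.05 numbered 345 to 887, 304 to 922 and 205 to 1001. The smallest adjusted p of dimercaprol against control depended on the ears. In limma it was 0.99995 in the main fit, 0.0529 without dimercaprol ear 508, 0.111 without ear 510 and 0.271 without ear 507. Against octylhomovanillamide it was 0.0516 without dimercaprol ear 508. Against indomethacin, where 1 probe set was called, the count was 0 without rescaling, without a filter, without a variance trend and with the Gapdh ratio. It was 2 with quantile normalization, brightness or skeletal muscle as covariates, 10 with a pseudocount of 64, 11 with a minimum signal of 300, 12 with animal as a random block and 18 with only the groups compared. Leaving out 1 ear gave 0 to 36. Dimercaprol then mustard against mustard had 4280 calls, and 13232 without rescaling, 327 with brightness and 1741 with the Gapdh ratio. The difference between the contrasts with and without mustard had 2088 calls, and 5800, 505 and 1366 under those settings, 1338 with only the groups compared, and 1295 to 3182 when 1 ear was left out. The causes were not tested. Of 2553 values of named genes under the alternatives, 2532 differed from the main estimate by less than the gene's residual SD between units, and 21 moved farther. This bar is wide for a difference between groups and takes no account of sign. Of 31 alternatives, the sign differed from the main fit in 12 for Fos, 11 for Cebpd and 11 for Nqo1. Of the moved values, 13 were against the right ears of naive animals 502 and 503 alone. There Fos had 1.01, Mt2 0.50, Txnip 0.35, Cebpd 0.45, Sesn1 0.20, Col3a1 0.04, Mcpt4 0.84, Oas1a -0.15, Cyp1a1 -0.54, Ptgs2 -0.55, Ahr -0.63, Hsd17b10 -0.72 and Stmn2 -0.33. No paired analysis was possible because dimercaprol and ethanol ears share 1 animal only. Few ears, and signal near background for genes such as Cxcl1, limit the precision.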

Other observations

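Ethanol ear 515, the ear of an animal whose other ear had indomethacin, read 7358 for Txnip, 930.3 for Pdk4, 3160.1 for Tsc22d3 and 1109 for Cebpd. In ethanol ears 507 and 520 Txnip read 2722 and 3701, Pdk4 129.7 and 522, Tsc22d3 1103 and 2426, and Cebpd 403 and 985. These genes were chosen after their values were seen.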
